A study of Mus musculus with 20 samples.

Results

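Malat1, Neat1, Miat, Snhg11, Pantr1, Sox2ot and Rmst are 7 long noncoding RNA (lncRNA) genes that are abundant in or particular to neural tissue. They were followed in 20 libraries of adult mouse hippocampus, and were chosen by gene symbol. The symbol found 6 of the 7 among the 48709 genes counted. No row had the symbol Rmst. A row without a symbol (ENSMUSG00000097348.8) had the chromosome, strand, start and end that Gencode M21 gives for Rmst, and it is described here as the Rmst locus, apart from the 6 genes matched by name. All 7 rows passed the filter on low counts, as did 19797 genes in total.

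A lncRNA is a long transcript that is not known to encode a protein. Several act in the nucleus on splicing and on the structure of nuclear bodies. Malat1 collects in nuclear speckles, which store splicing factors, and Neat1 is the RNA on which paraspeckles are built. Miat, also called Gomafu, is a nuclear RNA of neurons that binds splicing factors through repeats of one short motif. Snhg11 is the host transcript of small nucleolar RNAs (snoRNAs) that lie in its introns. Pantr1 lies beside Pou3f3, a transcription factor gene of the developing forebrain, and Sox2ot surrounds Sox2, a transcription factor gene of neural stem cells and glia. Rmst is a transcript of neural progenitors described as a partner of the SOX2 protein.

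The mice were C57BL/6 (C57BL/6J in the methods of the study) offspring of dams that breathed either filtered air (Ctrl) or re-aerosolized nanosized particulate matter from urban air (nPM) during pregnancy, in sessions of 5 h on 3 days a week from gestational day 2. The 4 groups were Ctrl males, nPM males, Ctrl females and nPM females, with 5 mice in each. The females were labelled 17.71 to 18.29 weeks old and the males 18.57 to 19.14 weeks old, so sex, age and any separate handling of the sexes cannot be told apart. The methods describe injections of the thymidine analogue EdU in male mice and state that every animal received them. Litters are not named in the labels, so p-values measure the spread between these mice. Libraries of ribosome-depleted total RNA held 19092067 to 38663408 reads assigned to genes.

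Before any comparison, 2 libraries stood apart at the Malat1 locus. Gm20417 and Gm37376 are annotated on the strand opposite Malat1, within its span. In 18 libraries Gm20417 held 17 to 75 reads, and its reads per kilobase were 0.0431% to 0.221% of those of Malat1. It held 4654 reads in Ctrl male 1 and 22199 reads in nPM female 4, or 27.7% and 89.2% of the Malat1 value per kilobase. Gm37376 behaved likewise, with 56 to 201 reads in the 18 libraries, 6008 in Ctrl male 1 and 37720 in nPM female 4. In nPM female 4 the difference was not confined to this locus. Genes annotated as antisense took 0.3087% of its counts, beside 0.1284% to 0.2% in the 18 libraries and 0.1631% in Ctrl male 1. The other males had 0.1284% to 0.1541%, all below Ctrl male 1. The part of these reads, opposite Malat1 or on antisense genes, in the results was not tested. The exposure and sex results of the lncRNAs are also given without both libraries where they passed or came near the threshold.

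Ranked by RPKM, in which reads are divided by the length of the gene and the size of the library so that genes can be compared, the 7 lncRNAs spanned a wide range. Malat1 stood first with a mean of 2423 RPKM (SD 666, n = 20), which was rank 12 among all 48709 genes and rank 1 among 3960 lincRNA genes. Snhg11 followed at 77.0 RPKM and Miat at 22.5 RPKM, and in all 20 libraries Malat1 was above Snhg11, Snhg11 above Miat and Miat above Pantr1. Below them the order was less firm. Pantr1 (8.22 RPKM, SD 1.06) was above Neat1 (5.63 RPKM, SD 1.88) in 18 of 20 libraries, with both exceptions among females. Neat1 was above the Rmst locus (3.35 RPKM, SD 0.81) in 19 libraries, and the Rmst locus was above Sox2ot (2.46 RPKM, SD 0.54) in 17. The difference between these last 2 (log2 0.44, SD 0.45) did not exceed its spread between libraries.

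Positions are those of GRCm38 (mm10). Malat1 (chr19:5795690-5802672, minus strand, a single span of 6983 bases) and Neat1 (chr19:5824708-5845478, minus strand) are neighbours, and both are annotated as lincRNA. Miat lies at chr5:112213228-112229395 on the minus strand, Pantr1 at chr1:42590782-42694842 on the minus strand and the Rmst locus at chr10:92071037-92165170 on the minus strand, all as lincRNA. Snhg11 (chr2:158375638-158386145, plus strand) is classed as protein_coding in the deposited annotation. Sox2ot (chr3:34104270-34682619, plus strand) is classed as processed_transcript and spans 578350 bases.

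Miat is shown first by sequence because its repeat is the feature through which splicing factors are described to bind it. The longest Miat transcript of Gencode M21 (Miat-205, 9163 bases) held the motif TACTAAC 6 times, written in DNA letters and searched on the transcript strand. Of 9975 other lncRNA genes whose longest transcript had at least 1000 bases, 1 held as many, and 93.1% of all of them held none. Neat1 held 1 copy, and the longest transcripts of the other 5 genes held none. The 6 copies lie in exon 7 of 7, in a pair of stretches printed here with the motif in capitals. The first is chr5:112217313-112217456 and the second chr5:112216756-112216808 (GRCm38, minus strand).
Miat stretch 1: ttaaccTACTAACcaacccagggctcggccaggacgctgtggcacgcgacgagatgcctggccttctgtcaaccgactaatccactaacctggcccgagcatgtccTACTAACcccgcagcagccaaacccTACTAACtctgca
Miat stretch 2: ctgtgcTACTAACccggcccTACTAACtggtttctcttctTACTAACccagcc
A pair of short rows annotated on the same strand, Gm27627 (chr5:112217318-112217467) and Gm27882 (chr5:112216740-112216813), cover most of the first stretch and all of the second. Both rows held 0 reads in every library. Gm27694, a short row within Malat1 and on its strand, also held 0 reads, while Malat1 held at least 276251 in each library. Zeros on such rows thus do not show that no reads fell on the stretches. How the counting treats overlapping rows was not tested.

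Promoter windows of 300 bases (250 before and 50 after the annotated start) were found in the RefSeq table for 3 of the 7, Malat1, Miat and Snhg11. These 3 are also among the genes that differed between the sexes below. They were searched on both strands for the core of the cAMP response element (TGACG), for the GC box bound by SP factors (GGGCGG) and for the CCAAT box. The TATA box (TATAAA) was searched as well, as were the full palindromes of the oestrogen and androgen response elements. The annotated starts used for the Miat and Snhg11 windows lie inside the gene spans given above, and the whole Miat window lies within the Miat span. Matches are in capitals.
Malat1 promoter, chr19:5802623-5802922, GRCm38.p6, minus strand: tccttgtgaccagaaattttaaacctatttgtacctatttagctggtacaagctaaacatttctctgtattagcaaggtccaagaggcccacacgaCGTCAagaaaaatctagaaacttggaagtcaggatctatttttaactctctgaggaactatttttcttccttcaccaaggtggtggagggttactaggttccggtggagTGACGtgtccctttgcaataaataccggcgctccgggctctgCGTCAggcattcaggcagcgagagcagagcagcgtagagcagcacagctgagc
Miat promoter, chr5:112228899-112229198, GRCm38.p6, minus strand: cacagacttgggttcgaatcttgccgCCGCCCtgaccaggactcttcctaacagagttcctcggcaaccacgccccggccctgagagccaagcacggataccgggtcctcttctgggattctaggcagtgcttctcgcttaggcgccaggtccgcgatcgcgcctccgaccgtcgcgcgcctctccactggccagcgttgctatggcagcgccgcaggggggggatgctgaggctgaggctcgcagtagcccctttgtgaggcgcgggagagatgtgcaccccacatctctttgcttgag
Snhg11 promoter, chr2:158375463-158375762, GRCm38.p6, plus strand: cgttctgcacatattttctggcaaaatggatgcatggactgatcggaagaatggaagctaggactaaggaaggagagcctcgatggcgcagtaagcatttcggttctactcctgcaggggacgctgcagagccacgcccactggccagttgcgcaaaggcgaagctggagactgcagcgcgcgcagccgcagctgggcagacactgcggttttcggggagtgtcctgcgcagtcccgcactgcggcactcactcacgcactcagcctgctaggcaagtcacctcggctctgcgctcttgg
The Malat1 window held 3 TGACG matches, which 20.8% of 32851 windows of this length held at least once. The Miat window held 1 GC box, which 35.7% of windows held. The Snhg11 window held none of the 6 motifs, and no window of the 3 held either full steroid response element (0.07% and 0.00913% of all windows did). The windows differed in base composition. Malat1 had 47% G and C, below the median of 52.7%, while Miat had 64.3% and Snhg11 60%.

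For exposure, the question was whether gestational nPM changed these transcripts in adult offspring of either sex. With limma-voom and p under 0.005, 0 of the 7 passed with both sexes together (0.141% of 19797 genes passed), 0 in males (0.207%) and 0 in females (0.0909%). The sex by exposure interaction also called 0 of the 7 (0.217% of genes). After Benjamini-Hochberg adjustment no gene of the 19797 passed 0.05 in any of these fits, where edgeR passed 1 gene for the interaction and DESeq2 passed 1 in males and 1 in females. At an unadjusted p under 0.05 there were 416, 848, 393 and 751 genes, and among the 7 only Sox2ot and Miat, both in males. The edgeR quasi-likelihood test also called 0 of the 7 in each fit, and DESeq2 called 1, Sox2ot in males.

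Sox2ot had the smallest p among the 7 in males. It stood at 19.8, 28.1, 22.3, 25.3 and 25.8 CPM (counts scaled to the size of the library by TMM) in the 5 Ctrl males. The nPM males had 33.6, 33.4, 26.7, 27.6 and 36.4 CPM. Of the nPM males, 3 were above every Ctrl male, and the groups overlapped. The log2 fold change in males was 0.37 (SE 0.11, 95% interval 0.12 to 0.62), or 1.29-fold, with adjusted p = 0.9631 in limma-voom. Its unadjusted p in limma-voom was p = 0.00666, and a 2-sided exact permutation test of the difference in mean log2 CPM gave p = 0.0238, where 0.00794 is the smallest that 5 against 5 allows. Without both libraries that stood apart, the male log2 fold change was 0.30 (SE 0.11). Ctrl male 1 was the lowest of the 10.

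For Sox2ot in females, the Ctrl females had 22.8, 25.4, 37.5, 26.3 and 36.1 CPM and the nPM females 24.0, 24.0, 30.3, 24.6 and 39.9 CPM. Each group of females held a few high and several low mice, at about the same levels. The log2 fold change was -0.02 (95% interval -0.39 to 0.36, limma-voom adjusted p = 0.9999). The interaction, female exposure effect minus male, was -0.40 on the log2 scale (SE 0.22, limma-voom adjusted p = 0.9875), so a difference between the sexes in this effect did not pass the threshold.

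Miat, the splicing-factor binder, had the second smallest p in males. Its level was 128, 111, 140, 104 and 130 CPM in Ctrl males. It was 135, 153, 125, 147 and 177 CPM in nPM males. The 3 highest values were those of nPM males, and the rest of both groups lay between 104 and 140 CPM. The log2 fold change was 0.26 with an SE of 0.11 and a 95% interval of 0.03 to 0.49 (adjusted p = 0.9631 in limma-voom). The exact permutation test gave p = 0.0556, and without Ctrl male 1 the estimate was 0.28. Among females the estimate was -0.02 (95% interval -0.39 to 0.35).

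The remaining 5 had intervals in males that included 0. Their log2 fold changes were 0.36 for Neat1, 0.20 for Malat1, 0.22 for the Rmst locus, 0.19 for Snhg11 and 0.15 for Pantr1. All 7 estimates were thus above 0 in males, against 49.6% of all genes tested. The estimates of all 5 moved by over 1.5 times when 1 library was left out. Without nPM male 1 the Rmst locus was at 0.02. Without Ctrl male 1 Neat1 was at 0.19 and Pantr1 at 0.06, and without Ctrl male 4 Malat1 was at 0.12 and Snhg11 at 0.07. In females the 7 estimates ran from -0.24 for the Rmst locus (95% interval -0.54 to 0.05) to 0.11 for Neat1 (-0.17 to 0.39). With both sexes together, the largest was Neat1 at 0.23 (SE 0.12, limma-voom adjusted p = 0.9998). The intervals of the 7 in that fit lay between -0.30 and 0.48.

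Other sets of genes lay to either side in males. The median log2 fold change with nPM was 0.22 over 1325 TEC genes (single-exon transcripts that Gencode lists as still to be experimentally tested) and 0.20 over 10 oligodendrocyte markers, all 10 of them above 0. In females these medians were -0.15 and -0.08. Markers of the dentate gyrus (0.21) and of the CA fields (0.20) had medians above 0 in males as well (0.12 and 0.13 without these libraries). Below 0 in males were the medians of choroid plexus (-0.45), meningeal (-0.35) and neocortical (-0.29) markers, which were 0.93, 0.52 and -0.04 in females. No marker of any of the cell types tested passed for nPM in limma-voom in males, in females or with both together when all libraries were used. The part of these sets in the male estimates of the lncRNAs was not tested.

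**Figure D1:**
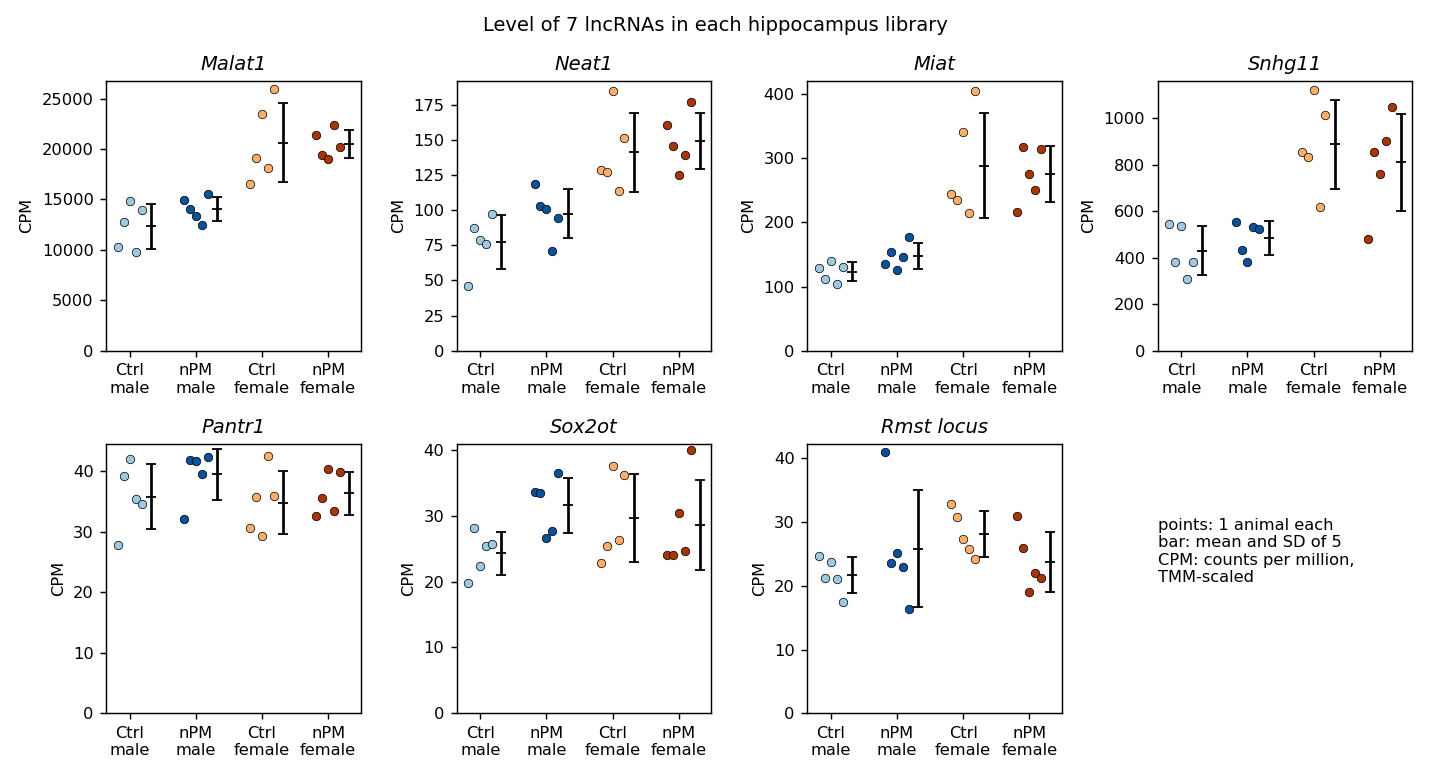
Level of each lncRNA in the 20 hippocampus libraries, in CPM scaled by TMM on axes that start at 0, with 1 point per mouse and the mean and SD of each group of 5 beside it. For Malat1 all 10 female libraries (16520 CPM and above) lie above all 10 male libraries (15520 CPM and below), whereas the groups of Pantr1 overlap throughout.

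Far more genes passed between the sexes than for exposure. Malat1, Neat1, Miat and Snhg11 were higher in females, by 1.56-fold to 2.06-fold. Pantr1, Sox2ot and the Rmst locus did not pass. In limma-voom 4 of the 7 were thus higher in females at p under 0.005, a call that 17.1% of 19797 genes met, and 0 of the 7 were lower, a call that 13.9% of genes met. At adjusted p under 0.05, 8005 genes passed in the same fit. Of the 6147 genes called, 55.1% were higher in females. When libraries were scaled on protein-coding genes alone, 70.2% of the 5926 genes then called were higher in females, and the same 4 lncRNAs had log2 fold changes of 0.71, 0.82, 1.10 and 0.94.

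Malat1, the speckle RNA, was at 10302, 12754, 14825, 9831 and 13917 CPM in Ctrl males and at 14909, 14077, 13320, 12418 and 15518 CPM in nPM males. In Ctrl females it was at 16518, 19117, 23510, 18148 and 25940 CPM. In nPM females it was at 21430, 19442, 19009, 22393 and 20214 CPM. Every female was above every male, whatever the exposure. The log2 fold change, female over male, was 0.65 (SE 0.09), or 1.56-fold (95% interval 1.38 to 1.77, adjusted p = 1.61e-05 in limma-voom). Between groups of 5, exact permutation gave p = 0.00794 within Ctrl and within nPM, the smallest possible.

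Neat1, the scaffold of paraspeckles, had 45.8, 87.1, 79.0, 76.2 and 97.0 CPM in Ctrl males and 119, 103, 100.5, 71.0 and 94.4 CPM in nPM males. The Ctrl females had 129, 127, 185, 114 and 152 CPM. The nPM females had 160, 146, 125, 139 and 177 CPM. Within each exposure group the sexes did not overlap, but nPM male 1 was above Ctrl female 4. Females were higher by a log2 fold change of 0.76 (SE 0.12), or 1.69-fold (95% interval 1.42 to 2.02, adjusted p = 7.53e-05 in limma-voom). Ctrl male 1 was the lowest library by a wide step.

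Miat differed most. The 10 males had 104 to 177 CPM, as given above. The Ctrl females had 245, 235, 341, 215 and 405 CPM. The nPM females had 215, 318, 276, 249.9 and 315 CPM. No female was within the male range. Its log2 fold change was 1.04 (SE 0.11), or 2.06-fold (95% interval 1.76 to 2.42), with adjusted p = 2.48e-06 in limma-voom, and 41 of the 19797 genes had a smaller p. The condition that all 10 females exceed all 10 males was met by Malat1 and Miat, 2 of the 7, and by 3.15% of all genes tested.

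Snhg11, the snoRNA host, had 545, 383, 538, 306 and 382 CPM in Ctrl males and 553, 434, 383, 533 and 522 CPM in nPM males. The Ctrl females had 853, 834, 1119, 616 and 1014 CPM. The nPM females had 482, 856, 759, 904 and 1047 CPM. Only nPM female 1 fell within the male range. On the log2 scale females were higher by 0.88 (SE 0.14), or 1.84-fold (95% interval 0.59 to 1.17 on the log2 scale, adjusted p = 7.11e-05 in limma-voom).

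The other 3 did not pass and overlapped between the sexes. Pantr1 ran from 27.9 to 42.4 CPM in males and from 29.4 to 42.5 CPM in females, with a log2 fold change of -0.08 (95% interval -0.24 to 0.09). Sox2ot had 0.05 (-0.19 to 0.29). The Rmst locus ran from 16.4 to 41.0 CPM in males and from 19.0 to 32.8 CPM in females, with 0.16 (-0.12 to 0.44). In this fit of all mice, a difference as large as that of Malat1 lay outside the interval of each of the 3. Within Ctrl alone the Rmst locus had 0.39 (0.02 to 0.77, exact permutation p = 0.0159), an interval that holds the Ctrl value of Malat1. With labelled age as a covariate the 3 were at -0.46 for Pantr1, -0.38 for Sox2ot and 0.69 for the Rmst locus, and none passed.

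The same 4 were called within each exposure group, from one fit of the 4 groups. Within Ctrl, a call of higher in females that 13.6% of genes met, the log2 fold changes were 0.74 for Malat1, 0.89 for Neat1, 1.19 for Miat and 1.05 for Snhg11 (limma-voom, largest adjusted p = 0.00103). Within nPM, a call that 6.84% of genes met, they were 0.55, 0.63, 0.89 and 0.71 (largest adjusted p = 0.0223). The values were lower within nPM for each of the 4, but the interaction, which tests this difference, did not pass for any (limma-voom adjusted p = 0.9875 for each). Without Ctrl male 1 and nPM female 4, the log2 fold changes over all mice were 0.60, 0.69, 1.07 and 0.91, and all 4 passed. Without these libraries they were 0.69, 0.73, 1.22 and 1.15 within Ctrl and 0.52, 0.65, 0.93 and 0.66 within nPM, and again all 4 passed in each (largest limma-voom adjusted p = 0.0331). With labelled age as a covariate they were 0.30, 0.62, 0.42 and 0.15, none passed, and the genes called in all fell from 6147 to 84. The labelled ages of the sexes do not overlap.

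**Figure D2:**
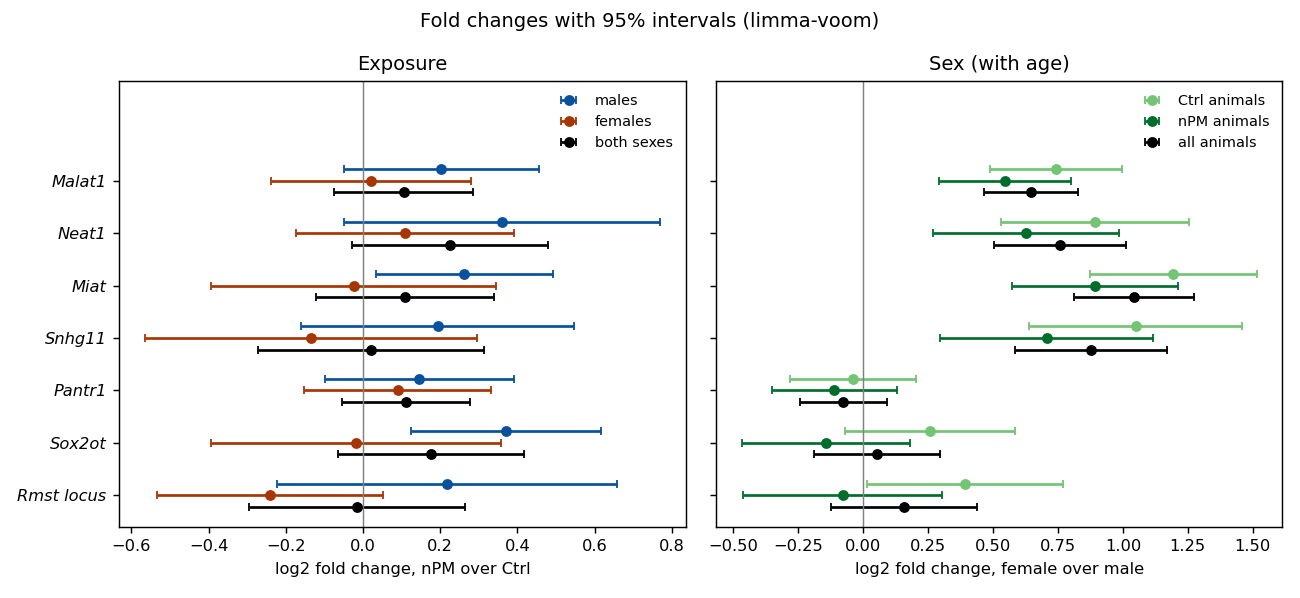
Log2 fold changes of the 7 lncRNAs with 95% intervals from limma-voom, for nPM over Ctrl at left (males, females and both sexes) and for female over male at right (Ctrl, nPM and all animals). At left only Sox2ot and Miat in males have intervals above 0, and at right those of Malat1, Neat1, Miat and Snhg11 lie above 0 in all 3 sets.

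The difference between the sexes also followed the annotated class of the transcript. In the same fit the median log2 fold change was -0.07 over 14994 protein-coding genes outside the mitochondrial genome and 0.17 over 657 lincRNA genes. It was 0.88 over 1325 TEC genes and 1.04 over 186 sense_intronic genes, which lie within introns. Of the TEC genes 66.3% were called higher in females, and of the sense_intronic genes 77.4%. Of the lincRNA genes 16.6% were, near the 17.1% of all genes. Among the lincRNA genes, 16.4% had a higher log2 fold change than Malat1, 12.6% than Neat1 and 5.78% than Miat. Without Ctrl male 1 and nPM female 4 the TEC median was 0.85.

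**Figure D3:**
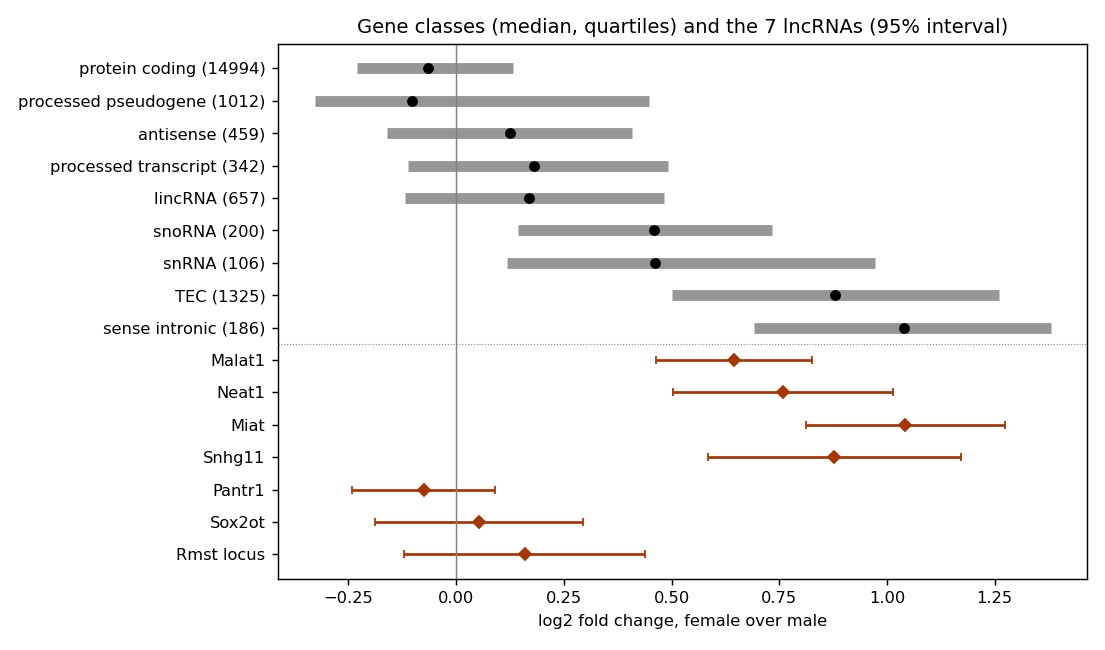
Log2 fold change, female over male, of 9 gene classes (dot, median; grey bar, lower to upper quartile; number of genes in brackets) and of the 7 lncRNAs (diamond, with 95% interval). Malat1, Neat1, Miat and Snhg11 lie above the upper quartile of lincRNA genes (0.48) and within or near the quartiles of TEC genes, while Pantr1, Sox2ot and the Rmst locus lie within the lincRNA quartiles.

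TEC genes took 0.458% to 0.853% of the counts in female libraries and 0.254% to 0.460% in male libraries. The highest share, 0.853%, was that of nPM female 4. Its 37720 reads on Gm37376, opposite Malat1 and itself a TEC gene, are part of that share. The r values below include this library. Within the 4 groups, so after the group means were removed, the log2 CPM of Snhg11 had r = 0.67 with the TEC share over the 20 libraries, Malat1 r = 0.60 and Miat r = 0.54. Neat1, also higher in females, had r = 0.20, below the 0.33 of Sox2ot, which did not pass between the sexes. For Pantr1 it was -0.28 and for the Rmst locus -0.30. With the share of sense_intronic genes Snhg11 had r = 0.71, Miat 0.69, Sox2ot 0.61, Malat1 0.60, Neat1 0.44, Pantr1 -0.06 and the Rmst locus -0.33. These points share library depth and scaling, and the part of the class shares in the sex difference was not tested.

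**Figure D4:**
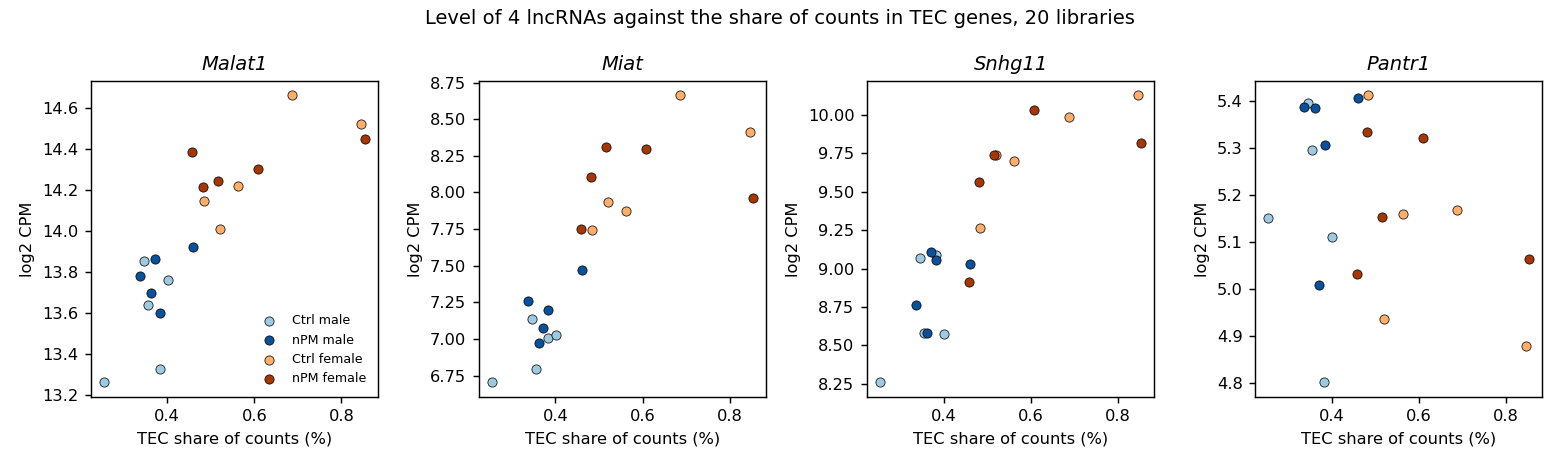
Log2 CPM of Malat1, Miat, Snhg11 and Pantr1 (vertical axis) against the percentage of a library's counts in TEC genes (horizontal axis), with 1 point per library and colour for the group. All female libraries but nPM female 1 (0.458%, beside 0.460% in nPM male 5) lie to the right of all male libraries, and all lie above them for Malat1 and Miat, all but nPM female 1 for Snhg11, and not for Pantr1.

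Markers of cell types were set beside the sex difference, since in bulk tissue more cells of a type and more RNA per cell cannot be told apart. The 8 markers common to neurons summed to 5767 to 8378 CPM in males and 4846 to 6879 CPM in females, with 1 called higher in females and 0 lower. Only that 1 had an estimate above 0, and the median log2 fold change of the 8 was -0.14. The hippocampal label was met by markers of the dentate gyrus (252.2 to 533 CPM, summed over 6 genes) and of the CA fields (487 to 803 CPM, 8 genes), which were present in every library. Beside 13.9% of all genes called lower in females, 2 of 10 oligodendrocyte markers were, 4 of 10 astrocyte markers, 3 of 8 microglial markers and 1 of 6 dentate gyrus markers. These were 7, 3, 2 and 1 without Ctrl male 1 and nPM female 4. Of 7 endothelial markers 4 were higher with and without these libraries, beside 17.1% of all genes (140 to 169 CPM in males and 179 to 251 CPM in females, summed). None of the markers tested for precursor cells, interneurons, CA fields, neocortex, striatum, thalamus, choroid plexus, ependyma, meninges or blood passed in limma-voom (1 of 6 for precursor cells without these libraries). The summed choroid plexus markers ran from 32.8 to 7367 CPM in males (median 1906) and from 44.7 to 8260 CPM in females (median 186.3). All 8 choroid plexus markers had estimates lower in females, with a median log2 fold change of -1.25. The part of cell composition in the lncRNA differences was not tested.

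Of the nearest protein-coding genes named here for the 4 lncRNAs higher in females, none passed at p under 0.005. Frmd8, beside Neat1, had a log2 fold change, female over male, of -0.26 (limma-voom adjusted p = 0.1595). Mn1, the nearest on one side of Miat but 756195 bases away, had 0.33 (SE 0.11, limma-voom adjusted p = 0.0208, under 0.05). Beside Snhg11 the GTPase regulator gene Ralgapb had -0.03 (SE 0.04). Lbp, on the other side of Snhg11, had -0.69 with a wide error (SE 0.65), and Cryba4, near Miat, had at most 23 reads in a library. Of the snoRNA rows inside Snhg11, Gm25129 (15 to 147 reads) had 0.57 (SE 0.23) and did not pass, and Gm25187 held 0 reads.

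Sox2, whose gene lies within the span and on the strand of Sox2ot, was 18.7 CPM in females and 25.4 CPM in males on average, with a log2 fold change of -0.44 (SE 0.07, adjusted p = 4.52e-05 in limma-voom). Sox2ot itself was at 0.05 in the same fit. The TEC row Gm42692, also inside Sox2ot and on its strand, was higher in females (0.83, SE 0.17, adjusted p = 0.000558 in limma-voom). Without Ctrl male 1 and nPM female 4, Sox2 was at -0.44 and Gm42692 at 0.83, and both passed. After group means were removed, Sox2ot had r = 0.53 with Sox2 and 0.90 with Gm42692 over 20 libraries. Reads on such overlapping rows of one strand may be left out by the counting or assigned to either row, and which of these happened was not tested.

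Pou3f3 begins 926 bases from Pantr1, on the other strand, and had a log2 fold change, female over male, of 0.02 (SE 0.07). Pantr1 and Pou3f3 had r = 0.79 over the 20 libraries after group means were removed. In males Pou3f3 had a log2 fold change with nPM of 0.22, beside 0.15 for Pantr1, and neither passed.

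The Rmst locus spans the hairpins of Mir135a-2 and Mir1251, which are shown because they are products annotated on the same strand. The mature sequences are from RefSeq (GRCm38.p6) with the seed, bases 2 to 8, in capitals, and the 4 seeds differ.
mmu-miR-135a-5p, chr10:92072141-92072163: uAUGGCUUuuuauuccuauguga
mmu-miR-135a-2-3p, chr10:92072104-92072124: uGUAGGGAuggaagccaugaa
mmu-miR-1251-5p, chr10:92137190-92137210: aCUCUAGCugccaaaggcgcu
mmu-miR-1251-3p, chr10:92137152-92137172: cGCUUUGCucagccaguguag
The row of Mir135a-2 held 1 to 29 reads per library and had a log2 fold change, female over male, of -0.32 (SE 0.42, limma-voom adjusted p = 0.5713). Mir1251 held 1 to 12 reads and did not pass the filter. Reads on the hairpin rows cannot be told apart from reads of the host transcript.

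Within groups, some pairs of the lncRNAs varied together and others did not. After group means were removed, the highest of the 21 pairwise correlations of log2 CPM was that of Miat and Snhg11 (Pearson r = 0.72, n = 20; 0.77 in the 10 females and 0.64 in the 10 males). Malat1 and Neat1, neighbours on one chromosome, had r = 0.62, with 0.63 in each sex. Neat1 and Sox2ot had 0.61, and Malat1 and Miat 0.58. Pairs near 0 included Neat1 with Snhg11 (-0.02), Miat with Pantr1 (0.02) and Neat1 with Pantr1 (0.04), and that of Neat1 and Miat was 0.60 in females and -0.17 in males. The lowest were those of the Rmst locus, with -0.54 to Pantr1 and -0.41 to both Sox2ot and Miat. These are descriptions of libraries that share depth and composition, and carry no p-value.

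**Figure D5:**
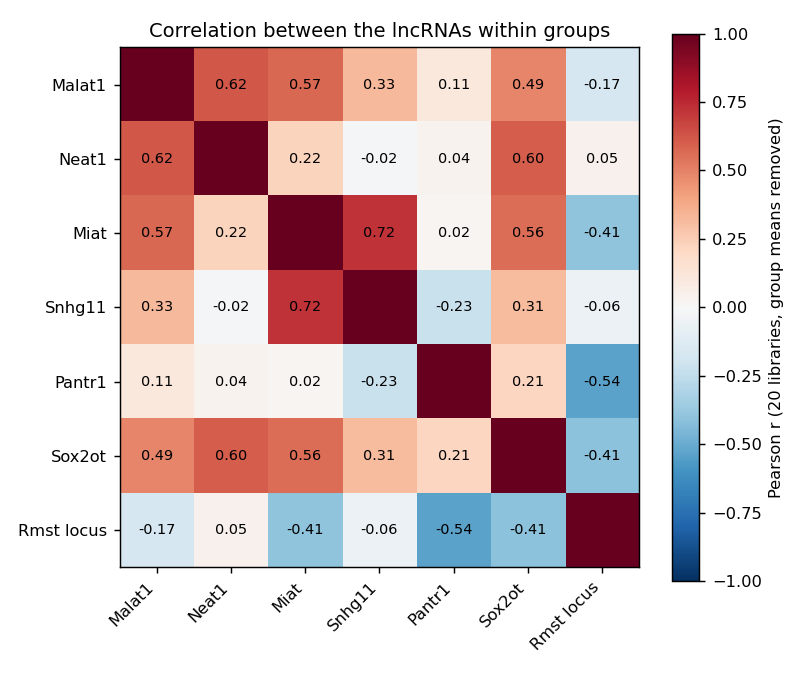
Pearson correlation between the 7 lncRNAs over 20 libraries, in log2 CPM after the mean of each of the 4 groups was subtracted (colour from -1 to 1). Miat with Snhg11 has the highest value, 0.72, and the Rmst locus with Pantr1 the lowest, -0.54.

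Of all genes tested, the one most like Snhg11 was Meg3, an imprinted lncRNA of neurons (r = 0.94, 0.92 in females and 0.97 in males). Meg3 was also higher in females, by a log2 fold change of 0.89 beside 0.88 for Snhg11. For Malat1 the 3 most like genes were Mir491 (r = 0.88), Gm43166 (0.88) and the nuclear pore gene Nup93 (0.87). For Miat they were Thpo (0.86), the scaffold attachment factor gene Safb2 (0.85) and Gm37543 (0.84). These 6 had log2 fold changes, female over male, of 0.62 to 1.83. For Neat1 they were Nbas (0.91), Otud7b (0.87) and Plekhh1 (0.85), which had 0.01 to 0.08 between the sexes, unlike Neat1 itself. Pantr1 was most like Adat2, Avpr1b and Chrm3 (0.82 to 0.84), Sox2ot like Gm42692, 4930402H24Rik and Srpk3 (0.83 to 0.90), and the Rmst locus like Smarcal1, Xrcc5 and Tpt1 (0.79 to 0.83).

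Among 26 other lncRNAs of brain that passed the filter, 11 were higher in females in limma-voom, beside 17.1% of all genes. A further 2 were lower, beside 13.9% of all genes, and 13 did not pass. The median log2 fold change of the 26 was 0.23, beside -0.02 over all genes. Those higher included Lncpint (0.99), Jpx, an activator of X inactivation (0.97), Meg3 (0.89) and Kcnq1ot1, the antisense RNA of an imprinted cluster (0.78). Tug1 (-0.34) and 1700020I14Rik (-0.33) were lower. There were 10 higher and 3 lower without Ctrl male 1 and nPM female 4. None of the 26 passed for nPM in males, in females or with both together, and without these libraries Rmrp passed in females (0.39, limma-voom adjusted p = 0.9792). For nPM 21 of 26 were above 0 in males (median 0.11), 9 in females (median -0.08) and 13 with both sexes together.

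The other host genes of snoRNAs did not go with Snhg11. Of 16, 1 was higher in females (Snhg17, 0.31), beside 17.1% of all genes, and 7 were lower, beside 13.9%. The other 8 did not pass, and the median of the 16 was -0.24. Gas5, a host whose RNA accumulates in growth-arrested cells, had -0.31 (adjusted p = 9.91e-06 in limma-voom), Snhg3 -0.61 and Snhg8 -0.46. None of the 16 passed for nPM, where the median over all 16 was 0.06 in males and -0.01 in females.

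Genes for the proteins of the bodies that hold these RNAs were set beside the 17.1% of all genes called higher in females and the 13.9% called lower. Of 20 paraspeckle protein genes 6 were higher in females and 6 lower. Those higher included Taf15 (0.51) and the chromatin remodeller Smarca4 (0.36). Those lower included Nono (-0.18) and Hnrnpk (-0.26), while the core gene Pspc1 (0.01) did not pass. Sfpq, another core gene, had 0.24, outside the p threshold but with adjusted p = 0.0178 in limma-voom. Of 30 nuclear speckle protein genes 6 were higher, among them Srrm2 (0.65) and Srrm1 (0.55), and 6 lower, among them Srsf3 (-0.36) and Srsf7 (-0.30), shares near those of all genes. Without Ctrl male 1 and nPM female 4 these were 9 and 7, and those of the paraspeckle genes 6 and 6. For nPM, Srsf9, a splicing factor of the SR family, passed with both sexes together (0.16, adjusted p = 0.9998 in limma-voom, and 0.16 without these libraries), and the other 29 and all 20 paraspeckle genes did not. Of the splicing factors described as binding Miat, 3 were measured under their listed symbols. Sf1 (0.41) and Celf3 (0.32) were higher in females and Srsf1 (-0.27), which is also in the speckle list, was lower, and none passed for nPM.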

How the data were processed

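RNA of the right hippocampus was sequenced as ribosome-depleted libraries of 20 mice, 5 per sex and exposure. Per the labels and the study's methods, the authors trimmed reads with Trimmomatic, aligned them to mm10 with HISAT2 and made the deposited counts per gene with featureCounts 1.5.0-p3 on Gencode M11. The strand setting is not given in the sources used here. The deposited mean RPKM per gene, made by the authors, differed from that computed from the counts by at most 4.91e-11.

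Genes were kept by edgeR's filter over the 4 groups (minimum count 10, minimum total 15), which left 19797 of 48709. Counts were scaled by TMM (factors 0.958 to 1.06, edgeR 4.0.16) and tested with voom and limma 3.58.1 in R 4.3.3 (offset 0.5), with a call at p under 0.005 and Benjamini-Hochberg adjusted p under 0.05 beside it. Single values were compared 5 against 5 by exact permutation over 252 arrangements. Alternatives were edgeR's quasi-likelihood test, DESeq2 1.42.0, other scalings, no filter, age or replicate number as a term and leaving out libraries. Sequences and windows were read with Python 3.11.15. Totals of 19092067 to 38663408 reads (median 29468930) set the counting error. The fits were tested on simulated data. Replicates differed by 14.72 to 82.15 times the counting noise, so no library was a second copy of another, which does not show that the mice are independent of litter.

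The named genes are the 7 lncRNAs, overlapping and nearest protein-coding genes, the 3 genes most correlated with each, and examples from the gene lists. The lncRNAs and the lists were chosen with earlier results of these data known. Replicate numbers did not pair the samples. Some neighbouring and listed genes are not reported here.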

Additional observations from a re-analysis of the deposited data

Results flagged for a closer look

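Of the 28 groups examined (7 lncRNAs in 4 groups of 5), 1 held a library far from the others. Pantr1 was at 32.2 CPM in nPM male 1, while the other 4 nPM males had 39.6 to 42.4 CPM. In log2 CPM its gap to the nearest was 0.753 of the range of the group, above Dixon's critical value of 0.71 for 5 samples. Chance flags about 1 in 20 groups.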

How the results depend on the processing

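The 4 lncRNAs higher in females were called under every alternative except age as a covariate, where 0 were called and 84 genes in all. Alternatives added after seeing the data were scaling on protein-coding genes, the sex difference within each exposure group and leaving out Ctrl male 1 with nPM female 4 together. DESeq2 called 43 genes for nPM in both sexes, 113 in males with 1 lncRNA among them (Sox2ot), 55 in females and 89 for the interaction, where edgeR called 66. Without a filter on low counts these were 71, 130, 87 and 149. Without both libraries that stood apart, 48 genes were called in females. Leaving out each replicate gave 17 to 47 genes in both sexes, 23 to 78 in males, 10 to 48 in females (48 without nPM female 4), 24 to 77 for the interaction and 5485 to 6334 between the sexes. It gave 0 to 1 lncRNAs in males (Sox2ot without nPM male 3, 0.42, or without nPM male 4, 0.42), 0 in the other exposure fits and 4 between the sexes.

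Estimates near 0 changed sign, and the cause was not tested. With both sexes together, the nPM estimate of the Rmst locus was 0.0071 by edgeR, 0.0060 by DESeq2 and 0.017 without both libraries. In females with age, Miat was at 0.032 and Sox2ot at 0.051, and without both libraries Miat was at 0.0060, Sox2ot at 0.024 and Malat1 at -0.011. The interaction of Pantr1 was 0.036 without both libraries, and Sox2ot between the sexes was -0.38 with age. Leaving out each replicate gave Snhg11 in both sexes -0.043 to 0.11, the Rmst locus in both sexes -0.13 to 0.043, Malat1 in females -0.052 to 0.11, Miat in females -0.12 to 0.11, Snhg11 in females -0.26 to 0.038, Sox2ot in females -0.15 to 0.076, the Pantr1 interaction -0.13 to 0.025 and Sox2ot between the sexes -0.0056 to 0.098.

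With the replicate number as a block, 21 genes were called in both sexes, 35 in males, 22 in females, 56 for the interaction and 5834 between the sexes, and no call of a lncRNA changed. Same-numbered samples had correlations of -0.364 to 0.157. With 5 mice per group, intervals of the exposure effects were as wide as given in the report, and no adjusted p passed.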
